A study of Arabidopsis thaliana with 20 samples.

Results

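The genes described here encode coat proteins of seed oil bodies and the enzymes that turn stored oil into sugar, in whole seedlings of Arabidopsis thaliana. They are a fixed list of 10 of the 36799 genes in the count tables, picked by gene identifier. The list sets no threshold on measured values, but it was drawn up with earlier results of these libraries known. Those results were the fall of seed transcripts in lhp1 at the warmer temperature, and the change of ICL with temperature in ein3 eil1 and in the double mutant against ein2. Values of those contrasts are given below as a description, with no p.

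The 10 groups are 5 genotypes at 21 and 27 °C, each with 2 replicates, and poly(A) RNA was sequenced from all 20 samples. The genotypes are Col-0 (wild type), ein2-5 (ein2), ein3-1 eil1-1 (ein3 eil1), lhp1-3 (lhp1) and ein2-5 lhp1-3 (ein2 lhp1). EIN2 is a membrane protein that passes on the ethylene signal, EIN3 and EIL1 are the transcription factors downstream of it, and LHP1 is a chromatin protein of the polycomb system. All seedlings were green, were grown in short days at 21 °C on medium with sucrose, and were 5 days old. The warmed groups spent the last 4 h at 27 °C, from 4 to 8 h after lights on. The labels do not give the hour of collection for the groups kept at 21 °C. Each mutation is represented by 1 allele or allele combination, and the labels do not say whether replicates were separate plates of plants.

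Arabidopsis embryos store triacylglycerol in oil bodies, droplets coated with oleosins and caleosins. After germination the lipase SDP1 releases fatty acids, acyl-CoA synthetases such as LACS6 activate them in the peroxisome, and beta-oxidation cuts them to acetyl-CoA. Isocitrate lyase (ICL) and malate synthase (MLS) of the glyoxylate cycle make 4-carbon acids from it, and PCK1 starts their conversion to sugar. Oleosin transcripts belong to late embryo development, those of ICL and MLS to early seedling growth, and both normally decline as a seedling becomes green.

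The oil body members are OLEO1 (AT4G25140, chromosome 4, 12900430 to 12901577), OLEO2 (AT5G40420, chromosome 5, 16173340 to 16174783), OLEO3 (AT5G51210, chromosome 5, 20820068 to 20820944), OLEO4 (AT3G27660, chromosome 3, 10243244 to 10245023) and the caleosin ATS1 (AT4G26740, chromosome 4, 13473516 to 13475371). The members for use of the oil are SDP1 (AT5G04040, chromosome 5, 1089342 to 1093204), LACS6 (AT3G05970, chromosome 3, 1786279 to 1791887), ICL (AT3G21720, chromosome 3, 7652487 to 7656053), MLS (AT5G03860, chromosome 5, 1032099 to 1034973) and PCK1 (AT4G37870, chromosome 4, 17802690 to 17806705). These coordinates come from the deposited count tables, and all 10 have identical ends in the RefSeq annotation of TAIR10.1.

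The 250 bases before the annotated gene start were searched for seed motifs in the oil body members and the members for use of the oil. They are printed for OLEO1, OLEO3 and OLEO4 and for ICL and MLS, the enzymes of the glyoxylate cycle. Capitals mark CATGCA on either strand (the RY motif, bound by the seed regulators ABI3, FUS3 and LEC2) and ACGTG on either strand, which also covers CACGTG (the G-box; ACGTG is the core of ABA response elements, bound by bZIP factors such as ABI5). Each sequence runs 5′ to 3′ toward the gene on the gene's own strand, from RefSeq TAIR10.1.
OLEO1: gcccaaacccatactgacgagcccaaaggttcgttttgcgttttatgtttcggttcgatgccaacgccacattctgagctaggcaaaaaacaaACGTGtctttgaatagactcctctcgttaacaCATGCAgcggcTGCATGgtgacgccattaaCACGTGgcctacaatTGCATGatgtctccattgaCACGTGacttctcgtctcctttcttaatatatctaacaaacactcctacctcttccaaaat
OLEO3: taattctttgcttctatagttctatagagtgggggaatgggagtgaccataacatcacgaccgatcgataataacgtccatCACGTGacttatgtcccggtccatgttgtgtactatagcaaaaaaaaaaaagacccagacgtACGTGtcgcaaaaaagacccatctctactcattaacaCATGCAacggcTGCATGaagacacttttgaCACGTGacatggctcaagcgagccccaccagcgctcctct
OLEO4: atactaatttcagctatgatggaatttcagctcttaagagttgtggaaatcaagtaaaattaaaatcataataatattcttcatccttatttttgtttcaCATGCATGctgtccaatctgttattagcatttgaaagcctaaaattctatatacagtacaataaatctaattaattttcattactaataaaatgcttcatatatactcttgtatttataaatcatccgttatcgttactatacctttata
ICL: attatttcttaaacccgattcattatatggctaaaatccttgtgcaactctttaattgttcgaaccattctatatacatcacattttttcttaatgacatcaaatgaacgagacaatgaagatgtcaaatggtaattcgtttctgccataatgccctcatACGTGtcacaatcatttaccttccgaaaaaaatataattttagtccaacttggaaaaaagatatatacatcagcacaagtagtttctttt
MLS: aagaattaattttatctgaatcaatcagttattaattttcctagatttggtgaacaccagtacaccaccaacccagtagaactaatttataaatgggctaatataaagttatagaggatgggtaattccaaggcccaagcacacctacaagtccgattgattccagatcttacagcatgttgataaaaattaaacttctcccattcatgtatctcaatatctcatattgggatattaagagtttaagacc
The windows lie at chr4:12900180-12900429 (plus strand) for OLEO1, chr5:20819818-20820067 (plus strand) for OLEO3, chr3:10242994-10243243 (plus strand) for OLEO4, chr3:7656054-7656303 (minus strand) for ICL and chr5:1034974-1035223 (minus strand) for MLS. CATGCA occurred in the windows of OLEO1, OLEO3, OLEO4 and ATS1 and in 0 of the 5 members for use of the oil. The share was 8.5% among 29293 such windows, those of genes with a count in these libraries. OLEO1 had 3 matches, OLEO3 and OLEO4 had 2 each and ATS1 had 1, and the OLEO4 matches overlap in 1 run of capitals. CACGTG occurred in OLEO1 and OLEO3, with 2 matches each, against 6.3% of windows. ACGTG, counted with the G-boxes, occurred in OLEO1, OLEO3 and ATS1 and in 2 of the 5 members for use of the oil, ICL and PCK1, against 22.4% of windows. These matches are a description of the letters in these windows.

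Total counts per library lay between 24153109 and 47566071, and both mates of a read pair were counted. EIN2, EIN3 and EIL1 transcripts were lower in every library of the mutants that carry their mutations than in all other libraries at the same temperature. LHP1 lay between 6.71 and 8.13 CPM (counts scaled to a common library total) in the 4 libraries with lhp1-3 at 27 °C and between 12.1 and 15.0 CPM in the other 6. At 21 °C its ranges overlapped, at 5.43 to 9.53 CPM against 9.04 to 12.1 CPM, so the transcript alone does not separate those libraries. The 4 markers of green seedlings, among them the small subunit of Rubisco and a chlorophyll-binding protein, summed to 37616.0 to 74582.2 CPM and none was at 0. The 12 markers of seeds, the storage proteins and late embryo proteins, were also present, and their summed level is given with the oleosins.

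Levels per kb of exon differed widely between the genes. In wild type at 21 °C, ICL was highest at 114 CPM per kb, followed by PCK1 at 47.0, MLS at 24.8, LACS6 at 14.8 and SDP1 at 5.87 CPM per kb. The oil body genes lay below, with OLEO2 at 3.08, OLEO1 at 1.32, OLEO3 at 1.17, OLEO4 at 0.194 and ATS1 at 0.173 CPM per kb. Among neighbours in that order, OLEO1 and OLEO3 did not differ beyond the spread of the replicates, and neither did OLEO4 and ATS1. Over the 10 groups the highest group mean exceeded the lowest 108.5-fold for OLEO2, 60.4-fold for ICL, 59.8-fold for OLEO1, 47.2-fold for ATS1, 24.0-fold for OLEO4, 14.2-fold for MLS and 13.6-fold for OLEO3. PCK1 spanned 3.2-fold, SDP1 1.6-fold and LACS6 1.5-fold. The ein2 lhp1 group at 27 °C held the highest mean for OLEO1, OLEO2, OLEO3, ICL, MLS and PCK1, and lhp1 at 21 °C held it for OLEO4 and ATS1.

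All 10 members passed the filter on low counts, which kept 21987 genes and corresponds to about 0.308 CPM. OLEO4 and ATS1 did so through mutant groups, since at 21 °C neither wild-type library reached that level for either gene. Wild type held 20 counts of OLEO4 and 14 of ATS1 over both libraries at 21 °C. A difference between a mutant that passed and wild type was therefore built into their selection for the test, so counts of calls against wild type below are over the other 8 genes, and the values of these 2 are a description.

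OLEO1 and OLEO2, the abundant oleosins, were near the floor in wild type and many times higher in each mutant. OLEO1 at 21 °C gave 1.22 and 1.19 CPM in wild type, 56.2 and 60.7 in ein2, 12.5 and 12.0 in ein3 eil1, 30.0 and 32.4 in lhp1, and 43.0 and 44.2 in ein2 lhp1. OLEO1 at 27 °C gave 1.28 and 0.913 CPM in wild type, 44.9 and 40.5 in ein2, 11 and 11.3 in ein3 eil1, 4.43 and 5.18 in lhp1, and 68.1 and 63.4 in ein2 lhp1. Every mutant library lay above every wild-type library at both temperatures, and no 2 genotypes overlapped at 21 °C. OLEO1 was lower in the warm lhp1 libraries than in those of any other mutant.

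OLEO2 was also lowest in wild type, and it separated the genotypes with ein2-5 from the others more widely than OLEO1. OLEO2 at 21 °C gave 2.44 and 3.26 CPM in wild type, 203.9 and 205.1 in ein2, 31.1 and 31.2 in ein3 eil1, 35.4 and 35.8 in lhp1, and 229.1 and 239.1 in ein2 lhp1. OLEO2 at 27 °C gave 3.45 and 2.65 CPM in wild type, 149.1 and 165.2 in ein2, 39.6 and 35.3 in ein3 eil1, 16 and 16.4 in lhp1, and 320.5 and 298.1 in ein2 lhp1. Both genotypes with ein2-5 were far above lhp1 for OLEO2 at 21 °C, where OLEO1 in lhp1 lay closer to them. Per kb, the ratio of OLEO1 to OLEO2 was 0.863 and 0.922 in the lhp1 libraries at 21 °C and between 0.188 and 0.509 in the other 18.

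**Figure D1:**
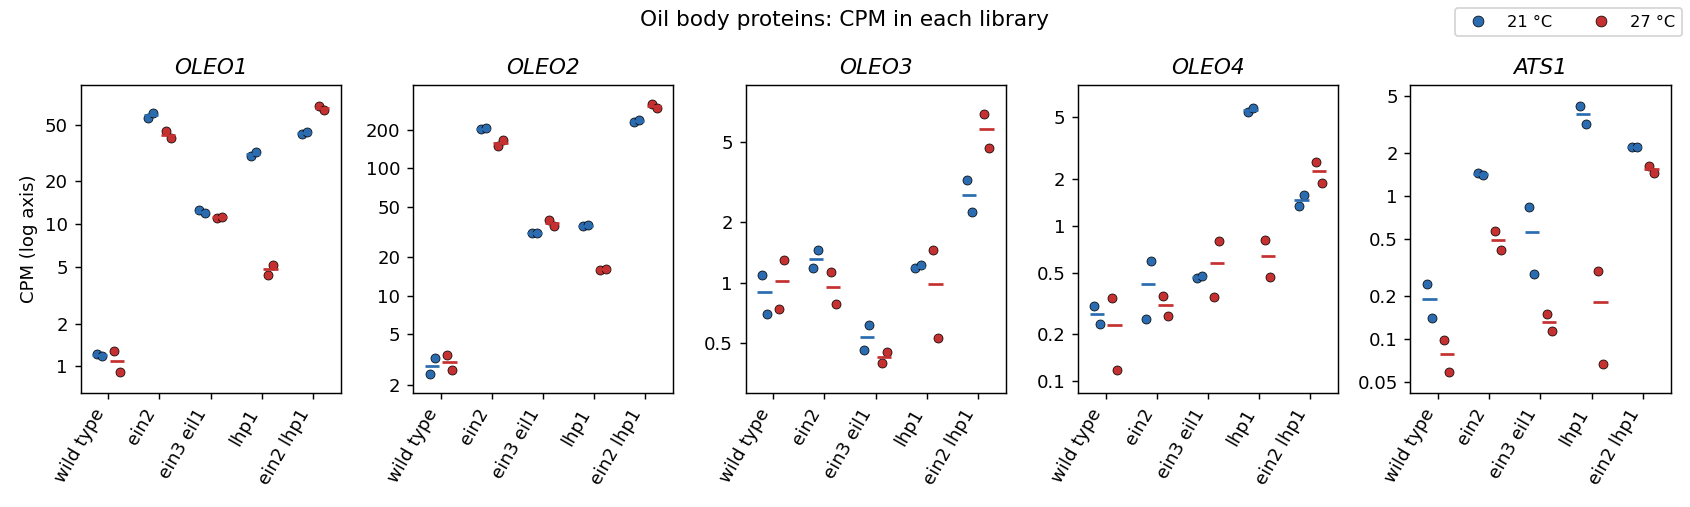
CPM of the 5 oil body genes in each of the 20 libraries (y axes logarithmic, 1 panel per gene with its own range; blue 21 °C, red 27 °C; bars, mean of 2 replicates). OLEO1 and OLEO2 were lowest in wild type, OLEO3 was highest in ein2 lhp1, and OLEO4 and ATS1 were highest in lhp1 at 21 °C.

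OLEO3, a smaller seed oleosin, was at about 1 CPM in most groups. The wild-type mean was 0.898 ± 0.282 CPM (± SD of 2 libraries) at 21 °C and 1.02 ± 0.394 at 27 °C. In ein2 lhp1 OLEO3 was at 3.24 and 2.25 CPM at 21 °C and at 6.89 and 4.70 CPM at 27 °C, above all other libraries. Between 32 and 274 counts per group stand behind these values.

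OLEO4 and ATS1 had their highest levels in lhp1 at 21 °C, OLEO4 far above its other groups. OLEO4 was at 5.38 and 5.73 CPM in lhp1 at 21 °C, at 0.809 and 0.465 CPM in lhp1 at 27 °C, and at 0.305 and 0.233 CPM in wild type at 21 °C. In ein2 lhp1 OLEO4 was at 1.34 and 1.57 CPM at 21 °C and 2.58 and 1.88 CPM at 27 °C. Neither ein2 nor ein3 eil1 libraries went above 0.795 CPM. ATS1 was at 4.26 and 3.17 CPM in lhp1 at 21 °C and at 0.298 and 0.0664 CPM there at 27 °C, against 0.244 and 0.140 CPM in wild type at 21 °C. ATS1 in ein2 was at 1.45 and 1.39 CPM at 21 °C and 0.567 and 0.418 CPM at 27 °C, and in ein2 lhp1 at 2.19 and 2.18 and at 1.63 and 1.45 CPM. For ATS1 the difference of ein2 lhp1 from lhp1 at 21 °C was -0.77 ± 0.38 (log2 ± SE) and did not pass the test (adjusted p 0.104, edgeR). The ein3 eil1 libraries of ATS1 disagreed at 21 °C, at 0.836 and 0.284 CPM.

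The seed markers were also higher in the mutants. The 12 markers summed to 16 to 17.4 CPM in wild type at 21 °C, 287.9 to 295.8 in ein2, 92.0 to 94.9 in ein3 eil1, 429.1 to 432.7 in lhp1 and 270.2 to 280.0 in ein2 lhp1. At 27 °C the sums were 13.6 to 16 CPM in wild type, 186.0 to 190.6 in ein2, 79.7 to 82.0 in ein3 eil1, 45.4 to 48.2 in lhp1 and 553.5 to 560.1 in ein2 lhp1. Between 0 and 4 of the 12 markers were at 0 in a library, with 2 to 4 in each wild-type library. The storage protein genes CRU2, SESA1 and SESA3 were at 0 in 9, 6 and 3 libraries and SESA2, SESA4 and SESA5 in 2 each, while the other 6 markers had counts in every library. At 21 °C 6 of the 12 were under the count filter in both wild-type libraries. A difference between groups was built into their being tested, so calls among the 12 below are a description. Green seedling markers summed to 52217.1 to 52438.3 CPM in wild type at 21 °C, 38461.1 to 39230.0 in lhp1 and 74427.9 to 74582.2 in ein2 lhp1, so they did not follow the same order. The part of the seed markers in the differences of the 10 genes was not tested. In these whole seedlings more cells or plants at an earlier stage and more RNA per cell cannot be told apart.

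SDP1 and LACS6, which open and activate the stored lipid, stayed within a narrow band in all genotypes. SDP1, the main oil body lipase, gave 21.5 and 21.6 CPM in the wild-type libraries at 21 °C and 29.9 and 30.8 CPM at 27 °C. Its mutant means lay between 23.5 and 26.7 CPM at 21 °C and between 28.3 and 33.8 CPM at 27 °C. LACS6, a peroxisomal acyl-CoA synthetase, gave 35.0 and 38.3 CPM in the wild-type libraries at 21 °C and 45.9 and 43.7 CPM at 27 °C. Its mutant means lay between 29.7 and 40.0 CPM at 21 °C and between 35.9 and 43.5 CPM at 27 °C.

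ICL, which splits isocitrate at the entry of the glyoxylate cycle, separated the mutants in opposite directions. ICL at 21 °C gave 252.7 and 252.1 CPM in wild type, 931.2 and 913.3 in ein2, 56.6 and 55.7 in ein3 eil1, 1080.3 and 1040.8 in lhp1, and 1043.2 and 1031.6 in ein2 lhp1. ICL at 27 °C gave 312.1 and 298.4 CPM in wild type, 643.8 and 639.9 in ein2, 26.4 and 26.7 in ein3 eil1, 1310.9 and 1304.7 in lhp1, and 1609.2 and 1600.4 in ein2 lhp1. The ein3 eil1 libraries were below all others and the ein2, lhp1 and ein2 lhp1 libraries above wild type at both temperatures. The lhp1 and ein2 lhp1 libraries overlapped at 21 °C and separated at 27 °C.

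MLS, which joins glyoxylate and acetyl-CoA to malate, separated ein3 eil1 from the other mutants in the same way, at a lower level. MLS at 21 °C gave 49.5 and 52.3 CPM in wild type, 179.0 and 183.8 in ein2, 20.1 and 19.5 in ein3 eil1, 178.0 and 185.3 in lhp1, and 153.0 and 160.5 in ein2 lhp1. MLS at 27 °C gave 76.3 and 76.1 CPM in wild type, 131.5 and 139.2 in ein2, 17.8 and 18.6 in ein3 eil1, 241.0 and 239.4 in lhp1, and 259.0 and 258.0 in ein2 lhp1. As for ICL, ein3 eil1 was lowest. Per kb, the ratio of ICL to MLS was 4.74 and 4.47 in wild type at 21 °C, 2.62 and 2.65 in ein3 eil1 at 21 °C, and 1.38 and 1.33 in ein3 eil1 at 27 °C, so ICL was the further reduced of the pair.

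PCK1, phosphoenolpyruvate carboxykinase of gluconeogenesis, varied less. PCK1 at 21 °C gave 122.6 and 120.4 CPM in wild type, 277.7 and 277.5 in ein2, 107.2 and 103.7 in ein3 eil1, 238.5 and 244.0 in lhp1, and 243.1 and 236.9 in ein2 lhp1. PCK1 at 27 °C gave 158.0 and 160.1 CPM in wild type, 203.9 and 204.2 in ein2, 138.5 and 132.0 in ein3 eil1, 276.7 and 276.9 in lhp1, and 342.6 and 334.2 in ein2 lhp1. The lhp1 and ein2 lhp1 libraries overlapped at 21 °C for this gene too. The ratio of ICL to PCK1 per kb was 2.41 and 2.44 in wild type at 21 °C, and 0.222 and 0.236 in ein3 eil1 at 27 °C.

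**Figure D2:**
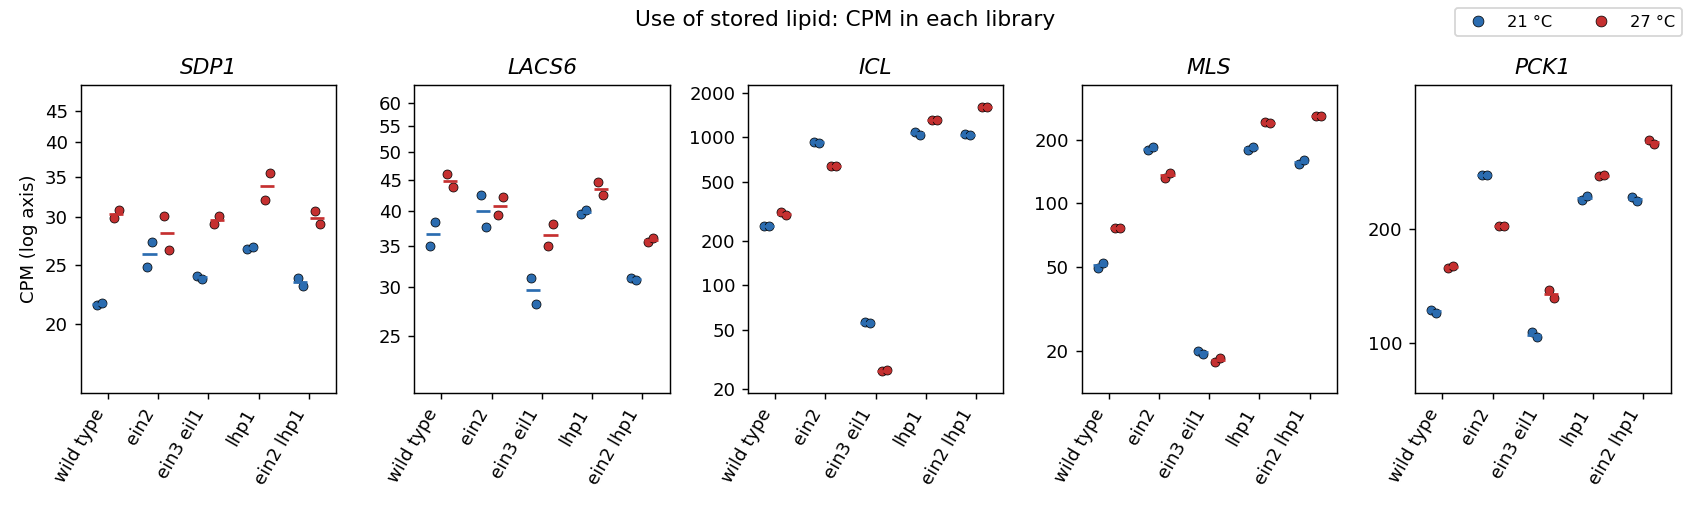
CPM of the 5 genes for use of stored lipid in each of the 20 libraries (y axes logarithmic, 1 panel per gene with its own range; blue 21 °C, red 27 °C; bars, mean of 2 replicates). ICL and MLS were lowest in ein3 eil1, while SDP1 and LACS6 varied by no more than 1.6-fold between group means.

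The comparison of each mutant with wild type at 21 °C asks how these levels differ between genotypes in seedlings that were not warmed. In ein2 the oleosins OLEO1 and OLEO2 and the glyoxylate cycle genes were all higher. OLEO2 was 70.5-fold higher, a log2 change of 6.14 ± 0.079 (SE), and OLEO1 was 48.5-fold higher (5.6 ± 0.12). The edgeR quasi-likelihood test gave them an adjusted p of 5.45e-65 and 7.09e-51. ICL rose 3.65-fold, MLS 3.56-fold and PCK1 2.29-fold, with log2 changes of 1.87 ± 0.028, 1.83 ± 0.045 and 1.19 ± 0.037. Of the 8 genes counted, 6 were called higher (adjusted p under 0.05) where 18.5% of all genes tested were, and 0 were called lower where 17.4% were. The median log2 change was 1.51 over these 8 and -0.004 over all genes. The remaining one was SDP1, at 0.27 ± 0.082. ATS1 was at 2.90 ± 0.53, from a wild-type level under the count filter. The SDP1 call was lost without ein2 replicate 2 (0.20) and when a trend with gene length was removed (0.18). OLEO3, OLEO4 and LACS6 did not pass, with intervals (95%) of -0.21 to 1.37, -0.48 to 1.79 and -0.01 to 0.27.

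In ein3 eil1 at 21 °C OLEO1 and OLEO2 were higher than in wild type while ICL and MLS were lower. OLEO1 rose 10.2-fold and OLEO2 10.7-fold, with log2 changes of 3.35 ± 0.14 and 3.43 ± 0.093 and adjusted p of 3.27e-32 and 3.88e-44 in edgeR. ICL fell by 2.17 ± 0.032 and MLS fell by 1.37 ± 0.055 on the log2 scale, to 0.222 and 0.387 of wild type (adjusted p 7.75e-61 and 6.21e-34, edgeR). LACS6 fell by 0.32 ± 0.073 and PCK1 fell by 0.21 ± 0.038. Of the 8 genes counted, these are 2 called higher, where 15.2% of all genes were, and 4 called lower, where 16.3% were. LACS6 missed the threshold without ein3 eil1 replicate 2 (-0.24). The other oleosins did not pass, OLEO3 at -0.66 (adjusted p 0.277, edgeR) and OLEO4 at 0.82 (0.288), nor did ATS1, at 1.42 with an interval of 0.20 to 2.63. The median over the 8 genes was -0.26.

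In lhp1 at 21 °C OLEO1, OLEO2, ICL, MLS and PCK1 were higher than in wild type. OLEO1 was 25.9-fold higher (log2 4.69 ± 0.13) and OLEO2 was 12.3-fold higher (3.62 ± 0.09). These lhp1 libraries are the higher side of the fall known when the list was drawn up, so the values are a description. ICL rose 4.2-fold, MLS 3.56-fold and PCK1 1.99-fold. OLEO4 and ATS1 had log2 changes of 4.37 ± 0.45 and 4.30 ± 0.50, from wild-type levels under the count filter. SDP1 rose by 0.31 ± 0.080. Of the 8 genes counted, 6 were called higher, where 12.6% of genes were, and 0 were called lower, where 15.7% were. Because of that choice nothing is read from these counts. The median log2 change over the 8 was 1.41. OLEO3 and LACS6 did not pass, with intervals of -0.34 to 1.22 and -0.02 to 0.26.

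In ein2 lhp1 at 21 °C OLEO3 was called higher as well as OLEO1 and OLEO2. OLEO2 rose 80.7-fold (log2 6.33 ± 0.079), OLEO1 36.2-fold (5.18 ± 0.12) and OLEO3 3.09-fold (1.63 ± 0.37), with adjusted p of 2.49e-66, 6.08e-48 and 0.000288 in edgeR. ICL rose 4.11-fold, MLS 3.08-fold and PCK1 1.98-fold, while LACS6 fell by 0.25 ± 0.073. The LACS6 call was lost without wild-type replicate 2 at 21 °C (-0.18). Of the 8 genes counted, 6 were higher and 1 was lower, where 17.6% and 16.1% of all genes were. OLEO4 and ATS1 were at 2.44 ± 0.48 and 3.52 ± 0.51, from wild-type levels under the count filter.

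At 27 °C the mutants kept their directions against wild type for OLEO1, OLEO2, ICL, MLS and PCK1. In ein2 these 5 of the 8 genes counted were higher and 0 were lower, where 19.8% and 18.3% of genes were. ICL was 2.10-fold and MLS 1.78-fold of wild type there. In ein3 eil1, 2 of the 8 were higher and 5 lower, where 17.4% and 19.2% of genes were. MLS fell by 2.07 ± 0.052 (adjusted p 2.80e-46, edgeR). ICL, among the 5 lower genes, was at -3.52 ± 0.034, or 0.0869 of wild type. Its change with temperature in these ein3 eil1 libraries was known when the list was drawn up, so that value is a description. OLEO3 was the fifth lower gene there, at -1.24 ± 0.44, a call lost without wild-type replicate 2 (-0.80) and without either ein3 eil1 replicate at 27 °C (-1.14 and -1.33).

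The warmed lhp1 libraries gave 5 higher and 0 lower calls among the 8 genes, where 14.3% and 12.5% of genes were. These libraries are the lower side of the fall known when the list was drawn up, so their values are a description. OLEO1 was 4.25-fold and OLEO2 5.24-fold of wild type, and ICL was 4.28-fold. OLEO4 was at log2 1.44 ± 0.52, and its value rests on single libraries. Without wild-type replicate 1 at 27 °C it was 2.44, and without wild-type replicate 2 or lhp1 replicate 1 at 27 °C it was 0.92 or 0.95. The interval of ATS1 was -0.30 to 2.88. Calls for ein2 lhp1 in the warmth numbered 6 up and 1 down among these 8, where 24% and 23% of genes were. OLEO2 was 100.1-fold, OLEO1 58.8-fold and OLEO3 5.71-fold of wild type, with adjusted p of 2.60e-68, 4.70e-52 and 1.25e-08 in edgeR, and ICL was 5.26-fold. OLEO4 was at 3.19 log2 units, or 4.19 without wild-type replicate 1 at 27 °C, and LACS6 was the lower gene, at -0.32 ± 0.072.

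**Figure D3:**
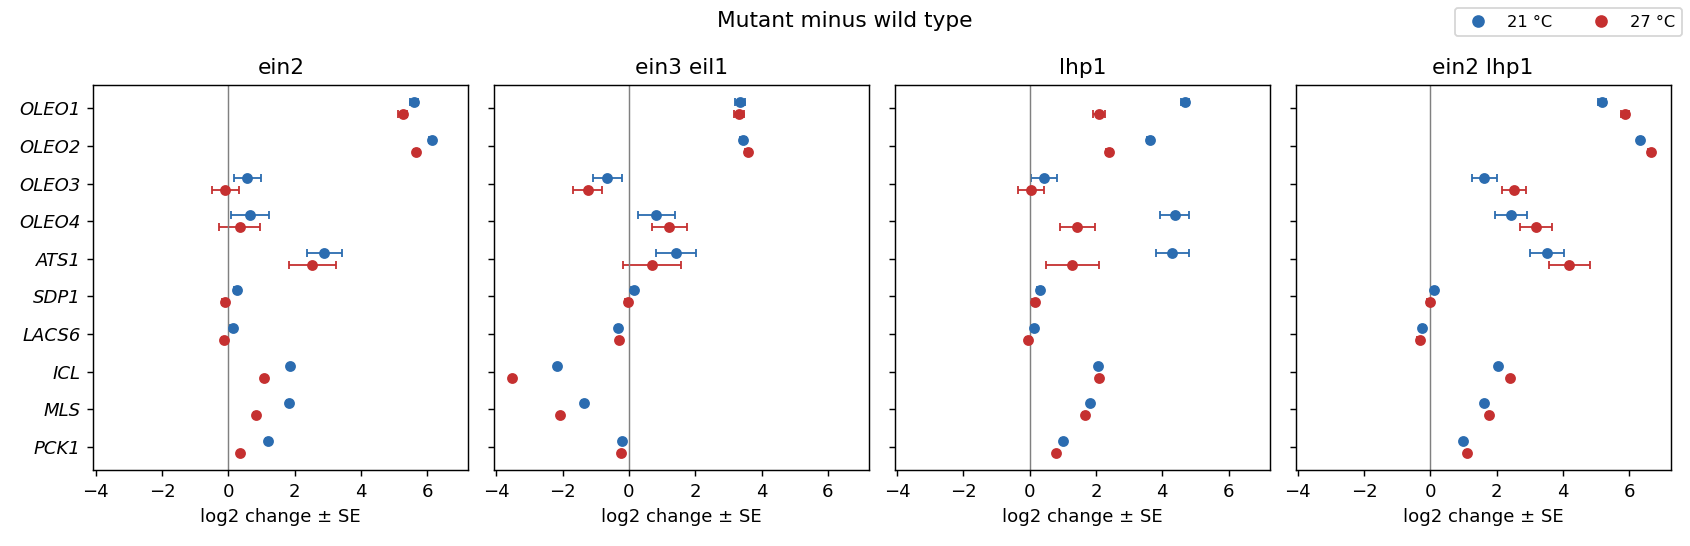
Log2 change of each gene in the mutant against wild type (x axis, log2 units ± SE from the edgeR fit, n = 2 per group; blue 21 °C, red 27 °C). ICL and MLS lie left of 0 only in ein3 eil1, where OLEO1 and OLEO2 lie at 3.32 to 3.60.

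Warming wild type by 4 h raised the genes for use of stored lipid and left the oleosins without a call. MLS rose 1.5-fold (log2 0.58 ± 0.046), SDP1 1.41-fold (0.49 ± 0.080), PCK1 1.31-fold, LACS6 1.22-fold and ICL 1.21-fold. Their adjusted p lay between 5.43e-18 for MLS and 0.000448 for LACS6 in edgeR. These are 5 genes called higher, where 18.8% of all genes were, and 0 called lower, where 20.3% were. The intervals of OLEO1 and OLEO2 were -0.56 to 0.34 and -0.19 to 0.37. For OLEO4 and ATS1 the few counts leave intervals of -1.36 to 1.06 and -2.80 to 0.45. The authors' deposited table also has 5 of the 10 at an adjusted p under 0.05 in wild type, all higher.

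In ein2 the same genes went down with warming or did not pass. PCK1 fell by 0.44 ± 0.036 and MLS fell by 0.42 ± 0.042, and OLEO1 and OLEO2 fell by 0.45 ± 0.077 and 0.38 ± 0.050. ICL, as a description, was at -0.52 ± 0.027. Adjusted p for the 4 tested here lay between 2.65e-17 for PCK1 and 1.77e-06 for OLEO1 in edgeR. With ATS1, at -1.54 ± 0.47, 5 of the 9 genes other than ICL were lower, where 15.4% of genes were, and 0 were higher, where 11.8% were. ATS1 was not called without ein2 replicate 2 at 27 °C (-1.32). The authors' deposited table has 5 lower genes in ein2, without ATS1, and the seed markers were lower as well, with 8 of 12 called lower and 0 higher.

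The difference of the warming response between ein2 and wild type was called for 5 of 7 genes, all lower in ein2. ICL is left out of such counts because its warming values were known when the list was drawn up, and OLEO4 and ATS1 because of the filter. It was -1 ± 0.063 for MLS and -0.83 ± 0.052 for PCK1, with an edgeR adjusted p of 2.19e-22 and 1.53e-22, and, as a description, -0.80 ± 0.039 for ICL. Among all genes 12.2% had such a lower response and 11.9% a higher one, called for 0 of the 7. The other calls, OLEO2 (-0.47), SDP1 (-0.38) and LACS6 (-0.26), were less stable. OLEO2 was not called without wild-type replicate 1 at 21 °C (-0.30) or at 27 °C (-0.25). SDP1 was not called without ein2 replicate 2 at 21 °C (-0.31) or 27 °C (-0.28), nor with the gene length trend removed (-0.13). LACS6 was lost under 9 of the other settings, with -0.12 when the length trend was removed and adjusted p of 0.0515 to 0.49.

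In ein3 eil1 warming moved the genes apart. SDP1, LACS6, PCK1 and OLEO2 were called higher, by 0.27 to 0.36 log2 units, and ATS1 was lower. ICL, given as a description, was at -1.08 ± 0.038, from 56.6 and 55.7 CPM to 26.4 and 26.7 CPM, while MLS was at -0.12 ± 0.062 and did not pass. Of the 9 genes other than ICL these are 4 higher and 1 lower, where 16.9% and 19.9% of genes were. The 1 lower, ATS1, passed the count filter through other genotypes and held 30 counts here at 21 °C and 10 at 27 °C. The difference of the response from wild type was -0.70 ± 0.077 for MLS, called lower (adjusted p 7.66e-11, edgeR), and -1.35 ± 0.047 for ICL, as a description. Of the 7 genes counted 1 was lower and 0 were higher, where 5.39% and 4.07% of all genes were called. The ATS1 change with warming was -1.90 ± 0.65, but it was -1.08 without ein3 eil1 replicate 1 at 21 °C and -2.63 without replicate 2, and it was also lost without either replicate at 27 °C (-2.11 and -1.73). OLEO2 was not called without ein3 eil1 replicate 1 at 27 °C (0.18), nor LACS6 without replicate 2 at 21 °C (0.23). The authors' deposited table lists 4 higher and 1 lower, without a value of adjusted p for ATS1.

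In lhp1 the warmed libraries had less OLEO1, OLEO2, OLEO4 and ATS1 and more ICL and MLS. OLEO1 was at 0.152, OLEO2 at 0.454, OLEO4 at 0.119 and ATS1 at 0.055 of the 21 °C level, while ICL, MLS, PCK1 and SDP1 were at 1.23, 1.32, 1.15 and 1.26 of it. That is 4 called higher and 4 called lower, where 16.2% and 15.6% of genes were, and nothing is read from these counts because the list was drawn up with this contrast known. The ATS1 log2 change was -4.18, or -5.73 without lhp1 replicate 1 at 27 °C. Both 27 °C libraries lay below both 21 °C libraries for these 4 oil body genes, and all 12 seed markers were lower too, with their sum going from 429.1 to 432.7 CPM down to 45.4 to 48.2 CPM. OLEO3 did not move with them, at 1.19 and 1.22 CPM in the 21 °C libraries and 1.45 and 0.531 CPM in the 27 °C libraries. The difference of the lhp1 response from that of wild type holds the same contrast and is likewise a description. It was -2.61 for OLEO1, -1.23 for OLEO2, -2.92 for OLEO4 and -3.01 for ATS1, and -0.18 and -0.19 for MLS and PCK1. These 6 were called lower, where 8.25% of all genes were, and 0 higher, where 12.4% were, and nothing is read from these counts either. OLEO4 was at -1.93 and not called without wild-type replicate 1 at 27 °C. ATS1 was at -4.56 without lhp1 replicate 1 at 27 °C, but lost its call without certain other single libraries (-2.45 to -3.29). MLS was lost without certain single libraries (-0.14 to -0.18). With the length trend removed MLS (-0.16) and PCK1 (-0.12) were not called.

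In ein2 lhp1 warming raised OLEO1, OLEO2 and OLEO3 and the genes for use of stored lipid. MLS rose 1.65-fold (log2 0.72 ± 0.042), OLEO1 1.51-fold (0.59 ± 0.078), PCK1 1.41-fold (0.50 ± 0.036) and OLEO2 1.32-fold (0.40 ± 0.049). Adjusted p for these lay between 1.97e-24 for MLS and 2.44e-09 for OLEO1 in edgeR. OLEO3 rose by 1.07 ± 0.33, SDP1 by 0.35 ± 0.084 and LACS6 by 0.22 ± 0.076. ICL, as a description, was 1.55-fold (0.63 ± 0.027). Of the 9 genes other than ICL, 7 were called higher, where 14.3% of all genes were, and 0 lower, where 14.7% were. OLEO4 (0.61 ± 0.39) and ATS1 (-0.51 ± 0.41) did not pass. OLEO3 was not called without replicate 2 at 21 °C (0.83) or replicate 1 at 27 °C (0.78), and LACS6 was lost without any 1 of the 4 libraries of this genotype (0.21 to 0.22). The authors' deposited table has 7 higher genes, without LACS6. The seed markers were higher too, with 8 of 12 called higher and 0 lower.

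Against wild type, the warming response of ein2 lhp1 was called higher for 1 of the 7 genes counted, OLEO1, by 0.70 ± 0.24 (adjusted p 0.0298, edgeR), and lower for 0. For ICL the difference was 0.35 ± 0.039, as a description. Of all genes, 10.1% had a higher and 6.75% a lower response. The OLEO1 call was lost without either wild-type replicate at 21 °C (0.68 and 0.72), without wild-type replicate 2 at 27 °C (0.50), without replicate 1 of ein2 lhp1 at 21 °C (0.68) or 27 °C (0.65), and with the length trend removed (0.46). OLEO2, at 0.31 ± 0.15, did not pass (adjusted p 0.156, edgeR).

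**Figure D4:**
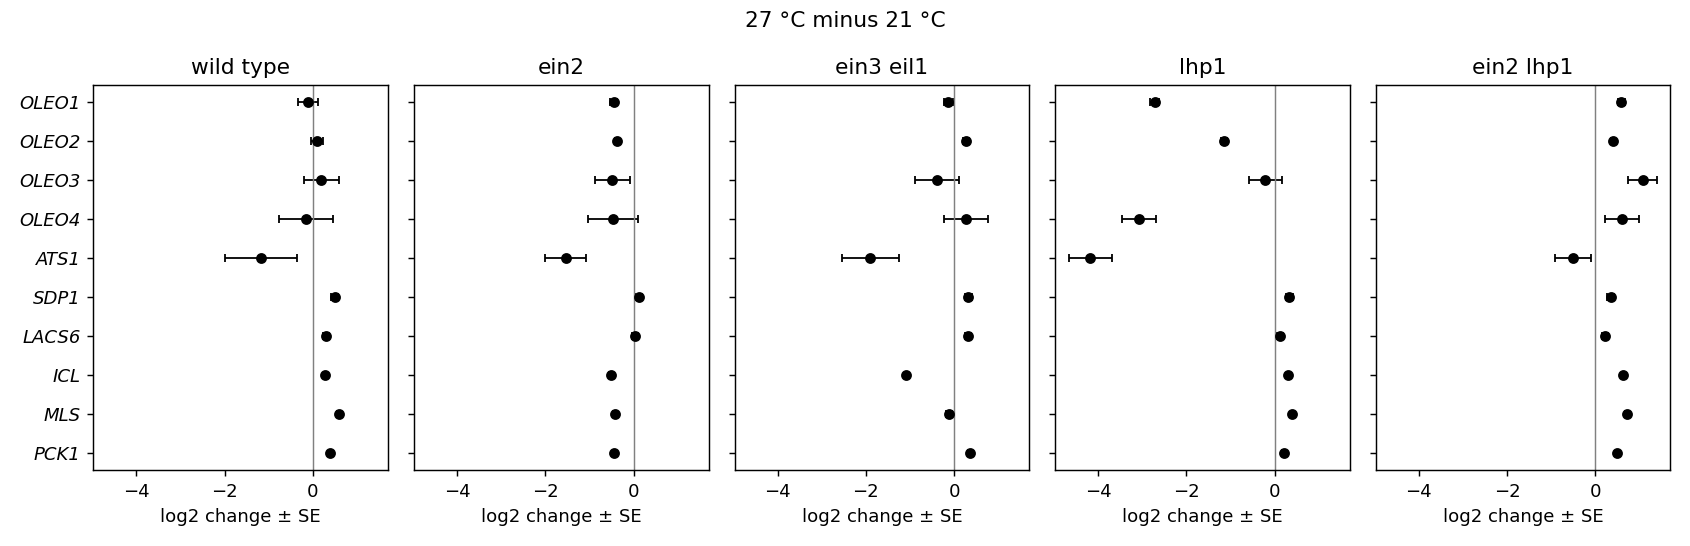
Log2 change at 27 °C against 21 °C for each gene in each genotype (x axis, log2 units ± SE from the edgeR fit, n = 2 per group). OLEO1, OLEO2, OLEO4 and ATS1 lie at -1.14 to -4.18 in lhp1, and OLEO1 and OLEO2 at 0.59 and 0.40 in ein2 lhp1.

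The double mutant was set against each single mutant to see which parent its levels resembled. At 21 °C ein2 lhp1 differed from ein2 by less than 1 log2 unit for OLEO1 (-0.42 ± 0.077), OLEO2 (0.20 ± 0.049), MLS (-0.21 ± 0.042) and PCK1 (-0.21 ± 0.036), all called. ICL, as a description, was at 0.17 ± 0.027. Together with OLEO3 (1.05), OLEO4 (1.78) and LACS6 (-0.38) the calls were 3 higher and 4 lower of the 9 genes other than ICL, where 17.9% and 19% of genes were. OLEO2 turned to -0.01 when the trend with gene length was removed. OLEO3 was not called without ein2 replicate 1 (0.92) or ein2 lhp1 replicate 1 (0.76), or with the length trend removed (0.78). OLEO4 was not called without ein2 replicate 1 (1.29) and was at 2.51 without ein2 replicate 2. It reached the filter level in only 1 ein2 library at 21 °C.

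Against lhp1 at 21 °C the double mutant had far more OLEO2 and less OLEO4. OLEO2 was 6.57-fold higher (log2 2.72 ± 0.055) and OLEO1 1.4-fold higher (0.48 ± 0.079), while OLEO4 was at 0.262 of lhp1 (-1.93 ± 0.37). These lhp1 libraries are the higher side of the fall known when the list was drawn up, so the values are a description. ICL and PCK1 did not pass, with intervals of -0.09 to 0.02 and -0.08 to 0.06. With OLEO3 (1.19, not called at 0.90 without ein2 lhp1 replicate 1), LACS6 (-0.37) and MLS (-0.21), 3 genes were higher and 3 lower, where 19.3% and 16.6% of genes were. For the same reason nothing is read from these counts. The seed markers were mostly lower than in lhp1 here, with 9 of 12 called lower and 3 higher, whereas OLEO1 and OLEO2 were higher. A marker that passed the count filter only through lhp1 had a lower value here built in.

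At 27 °C the double mutant was above both single mutants for all 5 oil body genes and for ICL, MLS and PCK1. Against ein2, OLEO2 was 1.96-fold, OLEO1 1.54-fold, ICL 2.50-fold, MLS 1.91-fold and PCK1 1.66-fold. Of the 9 genes other than ICL, whose value is a description, 7 were higher with OLEO3, OLEO4 and ATS1, where 19.1% of genes were, and LACS6 (-0.19) was the 1 lower, where 18.3% were. OLEO4 reached the filter level in only 1 ein2 library at 27 °C. ATS1, at 1.65, was not called without ein2 replicate 2 at 27 °C (1.43). LACS6 was lost without that library (-0.13), without either ein2 lhp1 library at 27 °C (-0.18 and -0.20) and with the length trend removed (-0.11). Against lhp1, OLEO2 was 19.1-fold, OLEO1 13.8-fold, OLEO3 5.55-fold and ICL 1.23-fold. These lhp1 libraries are those of the fall known when the list was drawn up, so the values against lhp1 are a description. Over all 10 genes, ICL included, 8 were called higher and 1, LACS6 (-0.28), lower, where 18.6% and 15.9% of genes were. ATS1 was under the count filter in both lhp1 libraries at 27 °C, so a difference was built into its being tested. Nothing is read from these counts. Without lhp1 replicate 1 at 27 °C the OLEO3 and ATS1 changes went from 2.47 and 2.90 to 3.43 and 4.45. MLS, at 0.11, was lost without any 1 of the lhp1 or ein2 lhp1 libraries at 27 °C (0.10 to 0.11) and with no filter on low counts (0.10).

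Some pairs of members followed each other closely across the 10 groups and others did not. Pearson's r was taken on log2 group means with 2 CPM added. It was 0.97 for OLEO1 with OLEO2, 0.86 for OLEO4 with ATS1, 0.99 for ICL with MLS and 0.93 for MLS with PCK1. OLEO4 and ATS1 lay under 2 CPM in most groups, where the added constant flattens their differences. Other pairs of oleosins were less alike, from 0.29 for OLEO2 with OLEO4 to 0.59 for OLEO2 with OLEO3. Oleosins with ICL gave 0.39 (OLEO2) to 0.64 (OLEO3), with 0.42 for OLEO1, and OLEO1 with PCK1 gave 0.62. These r describe 10 group means from the same libraries. Per kb, OLEO1 was 0.0118 and 0.0115 of ICL in wild type at 21 °C, 0.147 and 0.162 in ein2, and 1.02 and 1.03 in ein3 eil1 at 27 °C. In lhp1 the ratio went from 0.0678 and 0.0759 at 21 °C to 0.00823 and 0.00968 at 27 °C, close to the 0.0100 and 0.00746 of wild type at 27 °C.

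**Figure D5:**
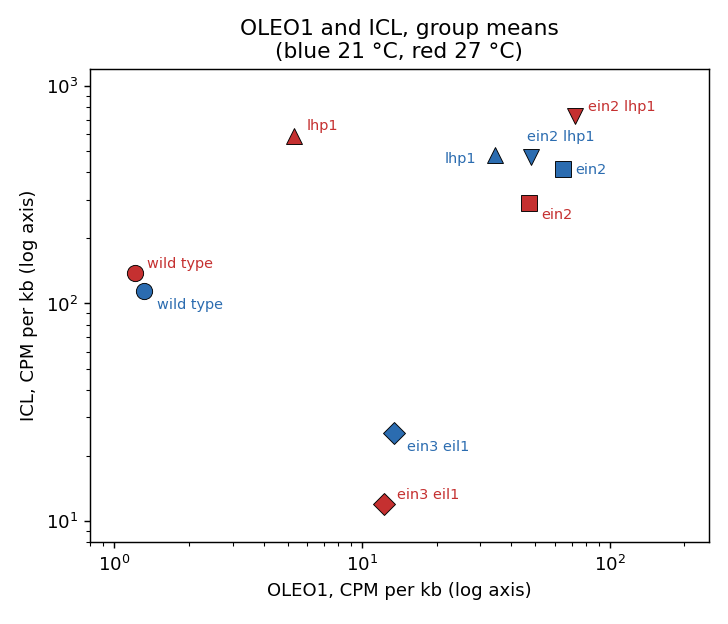
Group mean of OLEO1 (x axis) against that of ICL (y axis), both in CPM per kb on logarithmic axes, for 5 genotypes at 21 °C (blue) and 27 °C (red). The ein3 eil1 groups lie at the bottom, with ICL at 25.4 and 12.0, and the warmed lhp1 group joins high ICL (591) with low OLEO1 (5.29).

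The genes most like OLEO1 across the 10 groups, among 17496 searched with a mean of at least 2 CPM, were TIP3;1 (an aquaporin, r 0.973), AT1G04560 (AWPM-19-like, 0.971), AT3G17520 and AT4G21020 (late embryogenesis abundant proteins, both 0.966) and DSI-1VOC (named for induction by desiccation, 0.964). TIP3;1 ran from 0.554 CPM in wild type at 21 °C to 73.4 CPM in ein2 lhp1 at 27 °C. Most like ICL were CXE13 (a carboxylesterase, 0.968), AT3G45310 (a cysteine proteinase, 0.964), AT1G48660 (of the GH3 family, 0.960), ECHIA (an enoyl-CoA hydratase, 0.959) and AT2G47780 (of the rubber elongation factor family, 0.959). AT2G47780 ran from 6.85 CPM in ein3 eil1 at 21 °C to 110.3 CPM in ein2 lhp1 at 27 °C.

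Other genes of the pathway were read from lists by role. Of 16 further oil body proteins 13 were tested at 21 °C, and 7 were called higher and 0 lower in ein2, where 18.5% and 17.4% of all genes were, 5 and 2 in ein3 eil1 (all genes 15.2% and 16.3%), 8 and 1 in ein2 lhp1 (17.6% and 16.1%), and 6 and 2 in lhp1 (12.6% and 15.7%). At 21 °C 4 of these 13 were under the filter in both wild-type libraries, so that a difference was built into their being tested. In that order of mutants the median log2 change was 1.13, 0.02, 0.71 and 0.83, against -0.004, 0.002, -0.002 and 0.013 over all genes. These medians, and those of the lists below at 21 °C, were the same with genes at 0 counts set to their bound. AT1G48990, an oleosin, and ATPXG2, a peroxygenase of the caleosin family, had 0 counts in wild type at 21 °C. Against a floor of 3 counts over the group, AT1G48990 was at least 46.4-fold higher in ein2, 43.7-fold in ein2 lhp1, 8.84-fold in lhp1 and 8.28-fold in ein3 eil1. ATPXG2 was at least 26.6-, 34.5-, 45.6- and 3.54-fold higher in the same order. The oleosin AT3G01570 rose by 3.64 ± 0.15 in lhp1 and 5.13 ± 0.14 in ein2 lhp1, and the seipin AT5G16460 rose by 4.33 ± 0.60 in ein2 and 2.81 ± 0.67 in ein3 eil1, from 8 counts in wild type.

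Of 17 lipolysis and beta-oxidation genes tested, 7 were higher and 0 lower in ein2, where 18.5% and 17.4% of all genes were, 7 and 0 in lhp1 (all genes 12.6% and 15.7%), 1 and 8 in ein3 eil1 (15.2% and 16.3%), and 4 and 5 in ein2 lhp1 (17.6% and 16.1%), with medians of 0.13, 0.16, -0.17 and -0.05. MFP2, the multifunctional enzyme of beta-oxidation in seedlings, rose by 0.96 ± 0.047 in ein2, by 0.62 ± 0.048 in ein2 lhp1 and by 0.60 ± 0.047 in lhp1. The long-chain acyl-CoA oxidase ACX2 rose by 0.60 ± 0.057 in ein2 and 0.49 ± 0.056 in lhp1, and fell by 0.52 ± 0.061 in ein3 eil1. LACS7, the partner of LACS6, rose by 0.52 ± 0.083 in ein2 and 0.69 ± 0.081 in lhp1. In ein3 eil1 the receptor PEX7 of peroxisomal import fell by 0.46 ± 0.11. In ein2 lhp1 the thiolase PKT4 fell by 0.49 ± 0.095 and SDP1-LIKE, the close relative of SDP1, rose by 0.46 ± 0.14. These changes were all smaller than those of ICL and MLS in the single mutants.

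The rest of the glyoxylate cycle and gluconeogenesis list did not move as a block. Of 12 tested of 13, 5 were higher and 3 lower in ein2, where 18.5% and 17.4% of all genes were, 6 and 2 in ein2 lhp1 (all genes 17.6% and 16.1%), 4 and 5 in lhp1 (12.6% and 15.7%) and 2 and 7 in ein3 eil1 (15.2% and 16.3%), with medians of 0.19, 0.07, 0.02 and -0.23. CSY3, the peroxisomal citrate synthase, rose by 0.65 ± 0.054 in ein2, by 0.78 ± 0.054 in ein2 lhp1 and by 0.72 ± 0.053 in lhp1. PPDK, which makes phosphoenolpyruvate from pyruvate, rose by 0.89 ± 0.094, 0.62 ± 0.096 and 1 ± 0.093 in the same order. ACO3, an aconitase, rose by 0.64 ± 0.033 in ein2. In ein3 eil1 the carrier mSFC1 fell by 0.60 ± 0.13, the carrier BOU fell by 0.38 ± 0.048 and PMDH2, a peroxisomal malate dehydrogenase, rose by 0.50 ± 0.030. BOU fell by 0.48 ± 0.048 in lhp1, and PCK2, the second carboxykinase gene, fell by 0.82 ± 0.24 in ein2 lhp1.

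Of 14 genes of triacylglycerol synthesis 13 were tested, and 8 were higher and 1 lower in ein2, where 18.5% and 17.4% of all genes were. In ein3 eil1, lhp1 and ein2 lhp1 5, 3 and 4 were higher and 0 lower (all genes 15.2% and 16.3%, 12.6% and 15.7%, and 17.6% and 16.1%). The medians in that order of mutants were 0.23, 0.05, 0.10 and 0.18. AT3G44830, of the lecithin:cholesterol acyltransferase family, rose by 2.67 ± 0.36 in ein2 and 2.00 ± 0.37 in ein2 lhp1. DGAT3, a soluble acyltransferase, fell by 0.98 ± 0.047 in ein2 and rose by 0.71 ± 0.044 in ein3 eil1 and 0.62 ± 0.043 in lhp1. TAG1 (DGAT1), the main acyltransferase of seed oil, rose by 0.79 ± 0.11 in ein2. FAD2, the oleate desaturase, rose by 0.74 ± 0.029 in ein2 lhp1, 0.57 ± 0.029 in ein3 eil1 and 0.35 ± 0.029 in lhp1. PDAT rose by 0.43 ± 0.063 in ein3 eil1, FAD3 by 0.17 ± 0.051 in lhp1 and ROD1 by 0.50 ± 0.089 in ein2 lhp1.

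Of 14 regulators of seed genes 10 were tested at 21 °C. Of these, 3 were higher and 2 lower in ein2, where 18.5% and 17.4% of all genes were, and 2, 4 and 6 were higher and 0 lower in ein3 eil1, lhp1 and ein2 lhp1 (all genes 15.2% and 16.3%, 12.6% and 15.7%, and 17.6% and 16.1%). The medians in that order of mutants were -0.09, 0.14, 0.40 and 0.61, and 2 of the 10 were under the filter in both wild-type libraries at 21 °C. ABI5, a bZIP factor of the abscisic acid response, rose in every mutant, by 2.56 ± 0.16 in ein2 lhp1, 2.27 ± 0.16 in ein2, 1.64 ± 0.16 in lhp1 and 1.36 ± 0.17 in ein3 eil1. ABI3 rose by 1.55 ± 0.15 in ein2 and 0.51 ± 0.15 in lhp1. ABI4 had 4 counts in wild type, 166 in ein2 lhp1, 146 in lhp1 and 60 in ein2, and was called in these 3 mutants. It was under the filter in wild type, so a difference was built into its being tested. Its calls, which the counts above include, are a description. FUS3 had 2 counts in wild type, 22 in ein3 eil1 and 18 in ein2 lhp1, too few to give a fold.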

How the data were processed

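Poly(A) RNA of 20 seedling samples was counted per gene by the authors with featureCounts 2.0.3, per the file headers, and the deposited counts are not normalised. Pairs were not counted as units and no strand option was set, per the headers, so mates were counted singly (78.2% to 83.6% of counts from 5 to 50 were even) and antisense genes are not separated. Per the submitters' processing notes, FastQC, Trim Galore, STAR, Subread 2.0.1 and DESeq2 were used with the build TAIR10. The exon lengths deposited in those tables by the authors were used for values per kb. The authors also deposited DESeq2 tables of warming per genotype (log2 values and p-values adjusted by the authors), used only where named. Column names read 22 and 28 where labels read 21 and 27, and were taken as the same pair.

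Counts were scaled with TMM, filtered with filterByExpr by group (minimum count 10; 21987 genes) and modelled in edgeR 4.0.16 (R 4.3.3), with 1 mean per group over all 20 libraries. The 21 comparisons were tested two-sided with the quasi-likelihood F test and Benjamini-Hochberg adjustment over all genes, called at 0.05. P-values rest on the spread between the 2 samples of a group, which may be technical. That spread was pooled over the 10 groups (10 residual degrees of freedom) and drawn toward that of other genes (59.6 prior degrees of freedom). The SE is the log2 change divided by the root of F. CPM used TMM library sizes. The fit was tested on simulated data. Promoter windows of 250 bases came from RefSeq TAIR10.1, in which 99.5% of 36632 matched loci had identical ends and 98.4% of 52893 annotated introns read GT to AG. The window of 1 of the 10 genes is not reported here.

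The 10 genes, the lists and the tests were chosen with earlier results of these data known. Other comparisons that use the lhp1 libraries share them with the known fall of seed transcripts, so they are not independent of that choice. The same holds for ICL in comparisons that use the ein3 eil1, ein2 or ein2 lhp1 libraries. The text names the 10 genes, at most the 3 called genes with the largest change per list and comparison at 21 °C, and the 5 genes most like OLEO1 and ICL. The alternatives were median-ratio scaling, no filter, DESeq2 1.42.0, removal of a gene length trend, a replicate block, both together, a fit on the libraries of a single genotype for warming within it, and leaving out each library. Lists are described by counts and medians, with no set test.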

Additional observations from a re-analysis of the deposited data

Results flagged for a closer look

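The warming response (27 minus 21 °C, on the log2 scale) differed from that of wild type by the test of the difference itself in 7 cases. In ein2 the difference was -0.47 for OLEO2, -0.38 for SDP1, -0.26 for LACS6, -1 for MLS and -0.83 for PCK1. In ein3 eil1 it was -0.70 for MLS, and in ein2 lhp1 it was 0.70 for OLEO1. The calls of OLEO2, SDP1 and LACS6 in ein2 and of OLEO1 in ein2 lhp1 were lost under some other settings, as given above. The responses of lhp1 and those of ICL, known when the list was drawn up, are not counted here.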

How the results depend on the processing

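The 10 genes gave 139 called changes over the 21 comparisons, and 27 other settings gave 3646 other fits of them. Of these, 3567 kept direction and call, 77 lost the call (25 changes) and 2 reversed, both OLEO2 in ein2 lhp1 against ein2 at 21 °C, at -0.01 with the gene length trend removed and -0.01 with the replicate block and the length trend, against 0.20. Leaving out 1 library moved the number of the 10 genes called for the lhp1 response between 3 and 6 (6 with all libraries) and for the ein2 lhp1 response between 1 and 3 (2 with all libraries). Among the genes counted without ICL and, against wild type, without OLEO4 and ATS1, the calls ran from 3 to 5 for warming in ein3 eil1 (5 with all libraries, 3 without replicate 1 at 27 °C), from 3 to 5 for the ein2 response (5, and 3 without wild-type replicate 1 at 21 or at 27 °C) and from 0 to 2 for the ein2 lhp1 response (1 with all libraries). The other comparisons stayed within 1.5 times their count under all 27 settings. With the replicate number as a block the count was 5 for warming in wild type and equal to the count without the block in all 21 comparisons. Samples with the same number did not deviate together across genes (r -0.05 to 0.03 over 45 pairs of groups). A batch that touches few genes, or that follows genotype or temperature, was not tested. Depth limits OLEO3, OLEO4 and ATS1, since mates were counted singly and fragments are fewer than the counts.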
